A study of Homo sapiens with 6 samples.

Results

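This section concerns the last 5 days of a collagen culture of HCA-7, a cell line long established from a human colorectal cancer: the step from day 10 to day 15. In collagen type 1 the line grows as hollow, cystic colonies or as spiky, invading ones, and the study isolated each form and followed 1 isolate of each, cc3 (cystic) and sc1 (spiky), called clones below. Cells were embedded at 50000 per ml and total RNA of the cell-containing gel layer was hybridised to 1 Affymetrix U133 Plus 2.0 array per clone at day 5, 10 and 15. The rule takes 4 of the 6 arrays, both clones at day 15 against both at day 10, paired by colony form, and describes genes with a mean log2 value of at least 5 that moved the same way in both; the 2 day 5 arrays help to estimate the spread. The labels name no genotype difference or agent, and nothing in them says that the arrays of a clone came from separate cultures, so p-values measure only how these arrays scatter, and that scatter may be technical. With 1 clone per colony form, the results describe cc3 and sc1.

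A colony that grows in a gel gains a centre that oxygen and glucose reach only by diffusion. In low oxygen the prolyl hydroxylases of the EGLN family stop marking hypoxia-inducible factors (HIFs) for degradation, and HIFs bind the core ACGTG in promoters and enhancers of genes for glycolysis, angiogenesis, collagen modification and mitophagy. Dense or starved epithelial cells also leave the cell cycle, lower ribosome production, and in the colon switch on secretory, transport and barrier genes. These processes give the order in which the gene groups are described. In RNA from a whole layer, more cells of one kind and more RNA per cell cannot be told apart.

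Of 19775 genes on the array, 12317 passed the filter on dim genes, and 2786 of these (22.6%) differed between day 15 and day 10 at an adjusted p under 0.05 in limma, a linear model with moderated variances that held day and clone. There were 1067 genes higher at day 15 (8.66%) and 1719 lower (14.0%), and all 2786 moved the same way in both clones, which a fit with 1 common step favours. Over all genes tested 8887 (72.15%) had the same sign in both clones. At least 2-fold differences were called for 362 genes upward and 252 downward, so among the larger changes more genes rose than fell. In each clone taken alone, 196 genes rose and 120 fell at least 2-fold in both, and 2 genes did so in opposite directions. Of 640 long noncoding RNAs tested 44 were higher and 29 lower (11.41% called). The median gene moved by -0.01 (log2), or by -0.09 with arrays centred on their medians. The step was large against the one before it: 642 genes moved by at least 1 log2 unit between day 10 and day 15 and 59 between day 5 and day 10. The count fell to 1163 without the cystic and to 1019 without the spiky array of day 10, and the share of higher calls, 38.3%, was 27.0% with arrays centred on their medians, 49.5% after cyclic loess and 51.3% without the cystic array of day 10, where 597 genes rose and 566 fell. Among the 103 called genes that the rules named, 34 lost their call with at least 1 array left out: 27 without the cystic and 28 without the spiky array of day 10, and between 6 and 12 without each of the other 4. The log2 differences of these 34 lay between −1.68 (CCL2) and 1.12 (COL1A1). They include HIF1A, MYC, F3, KLF6, EREG, TIGAR, TP53I3, SREBF2, CTSB and CTSD, whose values in the text come from the fit to all 6 arrays. At least 1 other probe set above the filter had the opposite sign for AURKB, CANX, COL1A1, GINS2, GINS4, HK2, JMJD6, NCL, P4HA1, POLR1B, SQSTM1, SREBF2 and WDR12. Without the clone term 13 hypoxia, 9 glycolysis, 10 replication and 7 ribosome biogenesis genes were called in their list's main direction, and no other list held more than 4 calls in a direction.

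**Figure D1:**
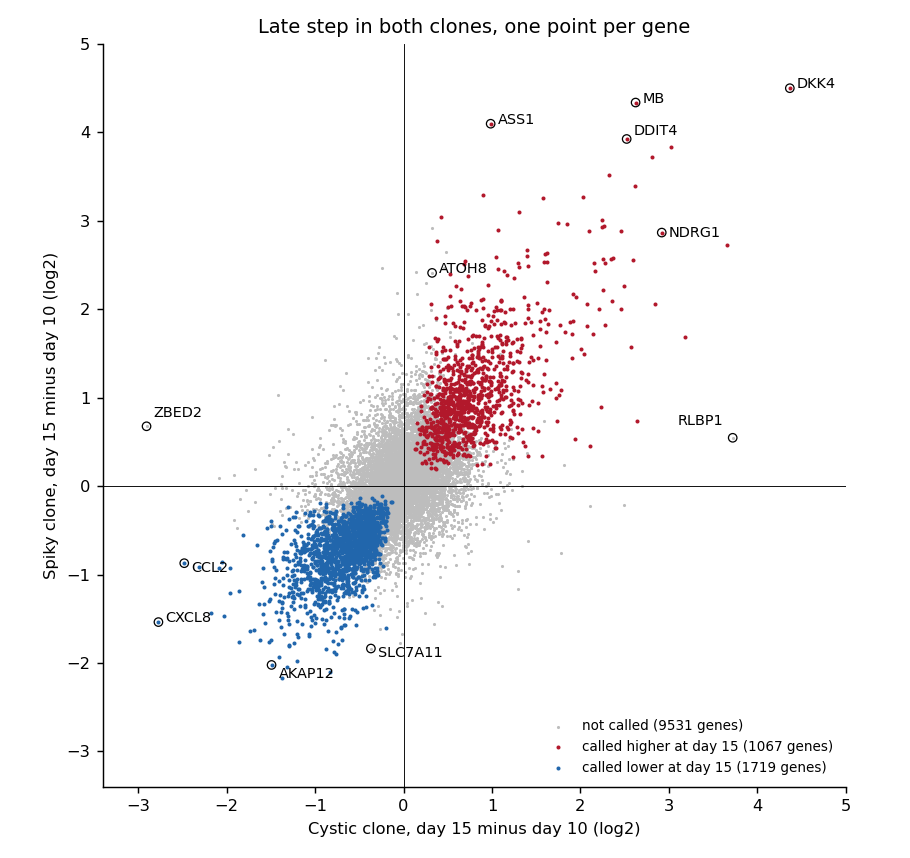
Change from day 10 to day 15 (log2) of each of the 12317 genes tested, in the cystic clone (x axis) and in the spiky clone (y axis). Red points are the 1067 genes called higher, blue points the 1719 called lower and grey points the rest; open circles mark genes named in the text, and the called genes lie in the quadrants where both clones agree in sign.

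Values on the arrays ran from 1.72 to 15.07 (log2), with array medians of 5.18 to 5.34. On the first principal component both day 15 arrays lay at 38.1, apart from the other 4 at -33.0 to -8.70. The difference between 3' and 5' beta-actin control probe sets, a sign of RNA or labelling quality, was highest at day 15 in both clones (3.28 cystic, 3.10 spiky) against 2.73 to 3.18 on the other 4 arrays, while that of GAPDH was 0.63 and 0.49 at day 15 against 0.60 to 0.79; their part in the results below was not tested. The epithelial markers EPCAM, KRT8, KRT18, KRT19 and VIL1 passed the filter, with EPCAM at 11.63 and 11.67 at day 15, whereas 7 of 12 colorectal markers (KRT20, CDX1, CDX2, CDH17, LGALS4, CEACAM5 and GPA33) lay under it, so intestinal identity was not seen above the filter for most of its defining genes. Some markers of cells that a line should lack passed the filter. They were 3 of 14 for fibroblasts (COL1A1, FBLN1 and ACTA2) and 2 of 8 for endothelium (CLDN5 and ESAM). For leukocytes 5 of 13 passed (CD3D, CSF1R, LYZ, CORO1A and LCP1). The defining genes COL1A2, COL3A1, DCN, PECAM1, CDH5, PTPRC and CD3E did not, although PECAM1 reached 5.22 and 5.30 at day 15. VWF, also under the filter, went from 3.97 to 4.83 in the cystic and from 3.85 to 5.13 in the spiky clone. COL1A1 rose from 7.02 to 8.12 and from 6.40 to 7.54, and LYZ, lysozyme, which intestinal epithelium also makes, rose by 1.10. The mean level of the fibroblast list lay between 3.96 and 4.12 at day 10 and between 4.11 and 4.21 at day 15, of the endothelial list between 4.25 and 4.47 and between 4.48 and 4.60, and of the leukocyte list between 4.31 and 4.68 and between 4.60 and 4.92.

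The genes that rose most encode a WNT inhibitor, an oxygen-binding protein and regulators of growth and glucose use. DKK4, a secreted inhibitor of WNT receptors and itself a WNT target, stood at 6.99 in the cystic and 5.63 in the spiky clone at day 10 and at 11.36 and 10.13 at day 15. This rise of 4.43 ± 0.23 (log2, SE), or 21.6-fold, was the largest in the data (limma adjusted p = 7.34e-05). The lowest day 15 value was above the highest day 10 value by more than 3 log2 units. MB, myoglobin, went from 6.003 to 8.63 in the cystic clone and from 4.38 to 8.72 in the spiky clone, which makes it at least 9.01-fold higher when the spiky day 10 array, under log2 5, is set to 5. TGM2, the protein-crosslinking transglutaminase 2, rose at least 8.92-fold from values just under 5 at day 10, on a probe set of a type (_x_at) that can bind related transcripts, with both other probe sets rising too. APCDD1, a second WNT inhibitor that sits in the membrane, was at 4.40 and 3.54 at day 10 and at 6.72 and 7.06 at day 15 (at least 3.71-fold). Under log2 5 on every array of day 5 and 10, it passed the filter only through day 15.

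DDIT4 (REDD1), an inhibitor of the growth kinase mTORC1, rose from 9.68 to 12.20 in the cystic and from 8.95 to 12.88 in the spiky clone, 9.35-fold in the mean. NDRG1, a stress- and hypoxia-induced gene, had the smallest p of the 12 rising genes named: both clones stood at 9.16 at day 10 and reached 12.08 and 12.02 at day 15 (log2 2.89 ± 0.12, adjusted p = 3.07e-05). The clones thus gave nearly the same level of this gene on both days. TXNIP, which binds thioredoxin and limits glucose uptake, rose 6.36-fold, from 9.11 and 8.39 to 11.56 and 11.28. SESN3, a sestrin, rose 6.28-fold and PADI2, which converts arginine to citrulline in proteins, 6.18-fold. EGLN3, an oxygen-sensing prolyl hydroxylase, SLC29A4, a transporter of monoamines and adenosine, and the long noncoding RNA LMNTD2-AS1 rose at least 6.28, 7.82 and 7.39-fold. EGLN3 and LMNTD2-AS1 lay under log2 5 on every array of day 5 and 10, so they too passed the filter only through day 15.

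The 12 genes that fell most had smaller changes and various roles, among them 2 chemokines and 2 genes of ribosome assembly. CXCL8, the neutrophil chemokine, fell from 10.25 to 7.48 in the cystic clone and from 7.17 to 5.64 in the spiky one (4.45-fold, adjusted p = 0.00190). The groups overlap, since the clones differed by about 3 log2 units already at day 10, and the call rests on the fall within each clone. CCL2, a monocyte chemokine, fell from 8.22 to 5.74 in the cystic clone and from 5.20 to 4.33 in the spiky clone, where it was near the filter throughout (adjusted p = 0.0369); its call was lost without the cystic array of day 10 (adjusted p = 0.0856) or of day 15 (0.195). AKAP12, a scaffold of protein kinase A, fell from 9.25 and 10.86 to 7.76 and 8.84, 3.38-fold. URB2 and RRP15, both needed to make the large ribosomal subunit, fell 3.21- and 3.21-fold. LRR1, part of a ubiquitin ligase that unloads the replication machinery, fell 3.15-fold and PIGW, of the GPI-anchor pathway, 3.22-fold. The lipid enzyme GPAT3 and DDIAS, an anti-apoptotic protein, fell at least 2.85- and 3.13-fold. The zinc-finger genes ZBTB2, ZNF239 and PRDM13 fell 3.50, 3.18 and at least 3.28-fold.

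**Figure D2:**
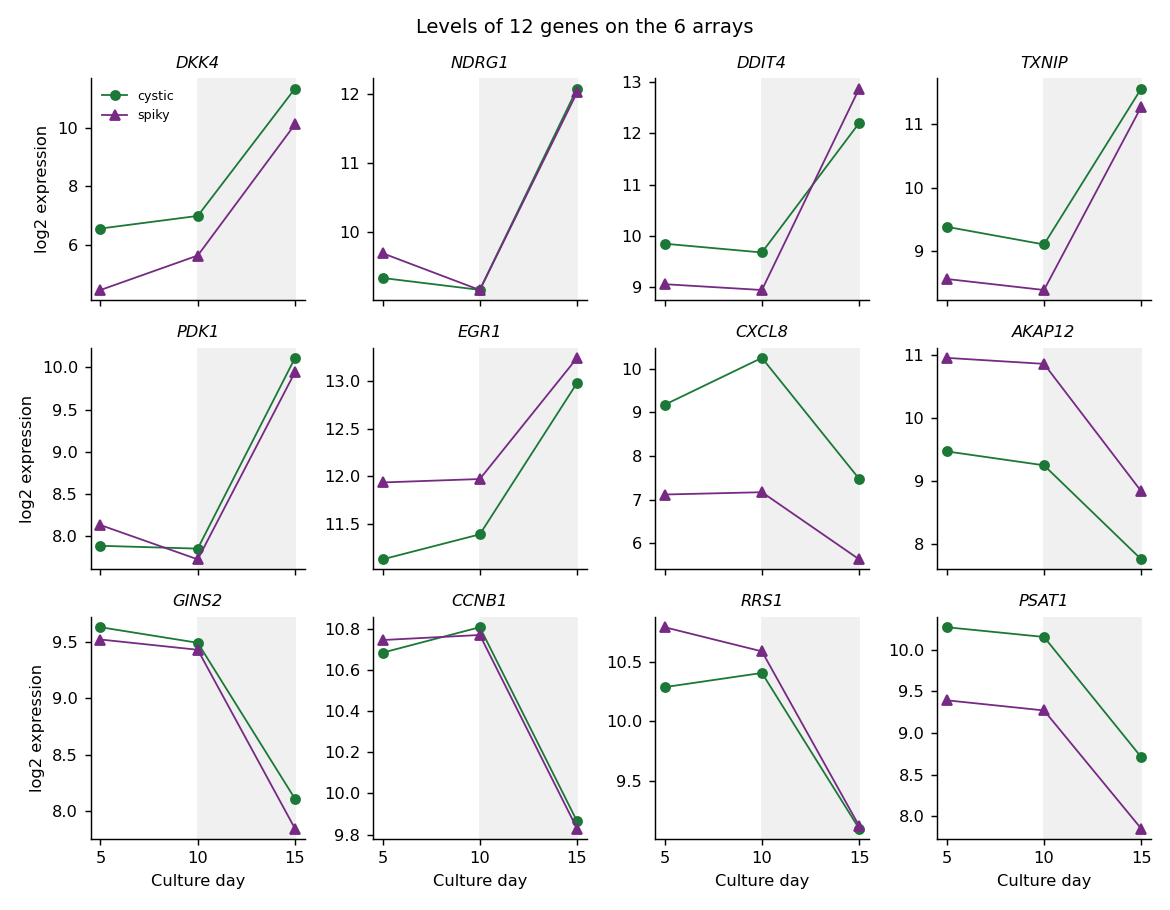
Log2 level of 12 genes on the 6 arrays against culture day (x axis, days), cystic clone as green circles and spiky clone as purple triangles, each point 1 array; the y axes differ between panels and do not start at 0. The shaded span is the step from day 10 to day 15, where DKK4, NDRG1, DDIT4, TXNIP, PDK1 and EGR1 rise and CXCL8, AKAP12, GINS2, CCNB1, RRS1 and PSAT1 fall in both clones.

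Most genes tested that HIFs are known to induce rose. Outside glycolysis, 19 of 28 tested genes of this list were higher at day 15 and 2 were lower, beside 8.66% and 14.0% of all genes, and the list's median was 1.14 (0.95 cystic, 1.39 spiky) against -0.01 for all genes. Of the 19, EGLN3 passed the filter only through day 15. BNIP3L, a mitophagy receptor, rose from 8.57 and 8.56 to 10.85 and 11.08 (5.28-fold, adjusted p = 7.86e-05). PLOD2, P4HA1 and EGLN1 encode hydroxylases, the first 2 acting on collagen and the last on HIF itself, and rose by 2.58, 1.68 and 1.11 (log2), P4HA1 with the opposite sign in its 1 other probe set. VEGFA, the angiogenic growth factor, rose by 1.95, ANGPTL4, a secreted lipase inhibitor, by 2.13, and ADM, the vasoactive peptide adrenomedullin, by 1.10. The histone demethylases KDM3A and KDM4B rose by 1.29 and 1.18. The 2 falling members were HIF1A, which encodes the oxygen-labile subunit (-0.48, adjusted p = 0.0420), and JMJD6 (-0.57), with the opposite sign in 1 of its 2 other probe sets. The HIF1A call was lost in 11 of 17 alternatives, among them cyclic loess, quantile normalization and the fit of the day 10 and day 15 arrays alone. CA12 (0.11), ERO1A (0.06), HILPDA (-0.21), STC2 and LOXL2 did not pass the test, while BNIP3, CA9, LOX and VLDLR did not enter it. Without probe sets of the types _x_at and _s_at 6 genes of the list were called higher.

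The core that HIFs bind was read in the RefSeq promoter windows (GRCh38.p14) of these genes, to show where it lies in genes that rose. The letters searched were ACGTG and, for the other strand, CACGT; where both overlap as CACGTG, both count. Each window below holds the 250 bases before the start, in the direction of the gene, with matches in capitals: DDIT4 at chr10:72273674-72273923 (plus strand), PLOD2 at chr3:146161185-146161434 (minus strand), ALDOC at chr17:28576896-28577145 (minus strand) and ANKRD37 at chr4:185396591-185396840 (plus strand).
DDIT4: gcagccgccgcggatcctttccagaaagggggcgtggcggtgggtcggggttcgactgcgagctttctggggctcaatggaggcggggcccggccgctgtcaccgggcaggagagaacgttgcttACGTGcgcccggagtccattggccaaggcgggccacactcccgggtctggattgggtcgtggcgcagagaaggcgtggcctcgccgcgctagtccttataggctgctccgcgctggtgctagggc
PLOD2: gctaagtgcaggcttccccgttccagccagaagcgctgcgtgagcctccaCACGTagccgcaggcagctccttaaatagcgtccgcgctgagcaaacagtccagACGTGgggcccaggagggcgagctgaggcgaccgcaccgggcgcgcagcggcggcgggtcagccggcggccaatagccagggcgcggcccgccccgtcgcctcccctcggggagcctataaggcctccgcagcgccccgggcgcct
ALDOC: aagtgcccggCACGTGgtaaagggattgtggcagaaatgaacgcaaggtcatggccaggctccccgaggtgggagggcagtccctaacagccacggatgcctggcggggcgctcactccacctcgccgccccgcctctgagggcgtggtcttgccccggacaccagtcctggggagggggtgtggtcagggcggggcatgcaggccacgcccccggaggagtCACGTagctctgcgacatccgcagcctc
ANKRD37: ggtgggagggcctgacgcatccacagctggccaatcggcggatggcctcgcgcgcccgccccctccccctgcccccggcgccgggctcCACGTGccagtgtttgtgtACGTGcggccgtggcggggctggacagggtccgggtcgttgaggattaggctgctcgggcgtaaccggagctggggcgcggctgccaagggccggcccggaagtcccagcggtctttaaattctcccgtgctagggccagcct
The core stood in 14 of 20 windows (70%) of the rising list members, which 15 of the 19 genes have in the table, and in 3 of 8 windows (37.5%) of the members not called higher. It stood in 15 of 34 windows (44.1%) of rising glycolysis genes, in 22.2% of the 14455 windows of all genes tested and in 18.5% of all 35116 RefSeq windows. Among all genes called higher it stood in 19.8% of windows, among those at least 2-fold higher in 17.6% and among genes called lower in 25.3%, so rising genes as a whole held it no more often than all genes tested. Of the 12 genes that rose most, 8 have windows, and the core stood in 2 of 11 (18.2%), those of DDIT4 and TXNIP. These shares describe letters in short windows, and windows of 1 gene can overlap. The hypoxia list was made of known HIF targets, so a high share in it does not rest on these arrays. The windows printed above all hold the core, whereas those of the rising members EGLN3, KDM3A and ADM hold none.

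Most transcripts for glucose uptake and glycolysis rose in the same step. Of 23 tested genes 17 were higher and 6 did not pass, with a median of 0.77, and 22 of the 23 had a positive difference in both clones. PDK1, the kinase that keeps pyruvate out of mitochondria, rose 4.72-fold, from 7.85 and 7.73 to 10.11 and 9.94. ALDOC, an aldolase, rose 6.03-fold, from 8.54 and 8.30 to 10.79 and 11.23. The glucose transporter SLC2A1 rose by 1.43 (log2), the regulators PFKFB4 and PFKFB3 by 2.05 and 0.90, and hexokinase HK2 by 0.77. Lactate dehydrogenase LDHA rose by 0.27, and ENO1 (0.30), GAPDH (0.11) and TPI1 (0.10) did not pass the test. Of 25 oxidative phosphorylation genes 1 was higher and 9 were lower (median -0.24), beside 8.66% and 14.0% of all genes. Cytochrome c, CYCS, fell from 11.55 and 11.39 to 10.78 and 10.71 (turning to 0.10 when its probe sets are averaged), NDUFS3 of complex I fell by 0.53, and NDUFV1 of the same complex rose by 0.41. The 9 falling genes became 4 after cyclic loess, 2 without the cystic and 1 without the spiky array of day 10.

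Most cell-cycle genes tested fell, against 14.0% of all genes called lower. Of 40 tested genes of DNA replication and the G1/S transition 31 were lower and 1 was higher at day 15 (median -0.72), and 39 of the 40 fell in both clones taken alone. GINS2, a subunit of the replicative helicase, went from 9.49 and 9.43 to 8.11 and 7.84 (2.81-fold, adjusted p = 0.000699). RRM2, which makes deoxynucleotides, fell 1.94-fold, from 12.55 and 12.34 to 11.77 and 11.22. In both genes every day 15 value lay below every day 10 value. The checkpoint adaptor CLSPN fell by 1.41 (log2), MCM5 by 1.23, CDC6 by 1.13 and PCNA, the polymerase clamp, by 0.84. The exception, GINS4 (0.78, adjusted p = 0.0488), rests on 1 of its 2 probe sets, and its sign turns when they are averaged.

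Of 32 genes of mitosis 27 were lower and 5 did not pass, with a median of -0.55. CCNB1, cyclin B1, fell from 10.81 and 10.77 to 9.86 and 9.83 (1.92-fold), and NDC80, of the kinetochore, fell 1.75-fold, from 10.47 and 10.22 to 9.81 and 9.26. MKI67, the proliferation antigen, fell by 0.80 (log2), AURKB by 0.66 and CDK1 by 0.49. TOP2A (-0.08) and CENPA (-0.02) did not pass the test. These falls are shallow, about 1.5-fold in the median, and the 27 calls became 5 without either array of day 10 and 2 without the clone term.

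Genes of quiescence and of the FOXO factors, which act in starved or resting cells, rose in 10 of 21 cases and fell in 1 (median 0.71). The shares of all genes were 8.66% and 14.0%. Beside TXNIP and SESN3, YPEL3, a growth suppressor, rose from 4.98 and 6.88 to 6.93 and 9.03 (at least 4.11-fold). CCNG2, an atypical cyclin of arrested cells, rose by 1.38 (log2), the repressor BCL6 by 1.19 and the insulin receptor INSR by 1.07. The falling gene was KLF6 (-0.57), and CDKN1B (0.00) and IRS2 (0.08), both FOXO targets, did not pass the test. The KLF6 call was lost in 12 of 17 alternatives. Among p53 targets 5 of 22 rose and 3 fell (median 0.12), the latter close to the 14.0% of all genes. CDKN1A, the p21 inhibitor of cyclin-dependent kinases, rose by 1.77 (1.07 cystic, 2.46 spiky), GDF15 from 6.30 and 5.22 to 7.66 and 7.36 and GADD45A from 9.86 and 9.31 to 11.27 and 11.36. TP53I3 and TIGAR fell 2.00- and 1.90-fold, and MDM2 (-0.29) and BAX (-0.11) did not pass. Without the spiky array of day 10, 3 p53 targets rose.

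Most transcripts tested for making ribosomes and charging tRNAs fell, against 14.0% of all genes called lower. Of 25 tested genes of ribosome biogenesis 20 were lower and 5 did not pass (median -0.81); 13 were lower without the intensity trend, and 12 of 20 without probe sets of the types _x_at and _s_at. RRS1, an assembly factor of the large subunit, fell from 10.40 and 10.59 to 9.10 and 9.12 (2.61-fold), and WDR12 from 10.67 and 10.75 to 9.70 and 9.96. UTP20 and UTP4, of the small-subunit processome, fell by 1.38 and 1.24 (log2), POLR1B, a subunit of RNA polymerase I, by 1.11 and NCL, nucleolin, by 0.39, whereas POLR1A (0.00) and FBL (-0.12) did not pass the test. Cytosolic tRNA synthetases were lower in 11 of 17 cases and all 17 had a negative difference in both clones (median -0.52). TARS1 fell 1.91-fold and KARS1 1.59-fold. The 11 synthetases became 4 without the cystic and 3 without the spiky array of day 10, and 7 without the spiky array of day 5 or of day 15.

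Heat shock genes were lower in 10 of 15 cases, beside 14.0% of all genes, and 5 did not pass (median -0.42). DNAJA1 went from 12.68 and 12.36 to 12.18 and 11.73, and the mitochondrial chaperonin HSPE1 from 13.15 and 13.22 to 12.77 and 12.76. HSPH1 and HSPA4L, which recharge HSP70 chaperones, fell by 1.16 and 1.26 (log2). Among 20 genes of the endoplasmic reticulum's chaperones and stress response 1 rose (EDEM1, 0.58) and 1 fell (CANX, -0.24, or 0.04 without probe sets of the types _x_at and _s_at), and HSPA5 (-0.03) and XBP1 (-0.27) did not pass. Of all genes, 8.66% were higher and 14.0% lower. In the amino acid response, where ATF4 induces synthesis and import of amino acids, 7 of 24 genes fell and 17 did not pass (median -0.13). PSAT1, of serine synthesis, fell from 10.15 and 9.27 to 8.71 and 7.85 (2.70-fold). MTHFD2, of mitochondrial folate metabolism, fell 1.76-fold, asparagine synthetase ASNS by 0.77 and the leucine importer SLC7A5 by 0.92, while ATF4 itself (-0.06) and DDIT3 (-0.01) did not pass. Without the spiky array of day 10 the counts were 6 heat shock and 4 amino acid genes, and without the cystic one 2 amino acid genes.

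**Figure D3:**
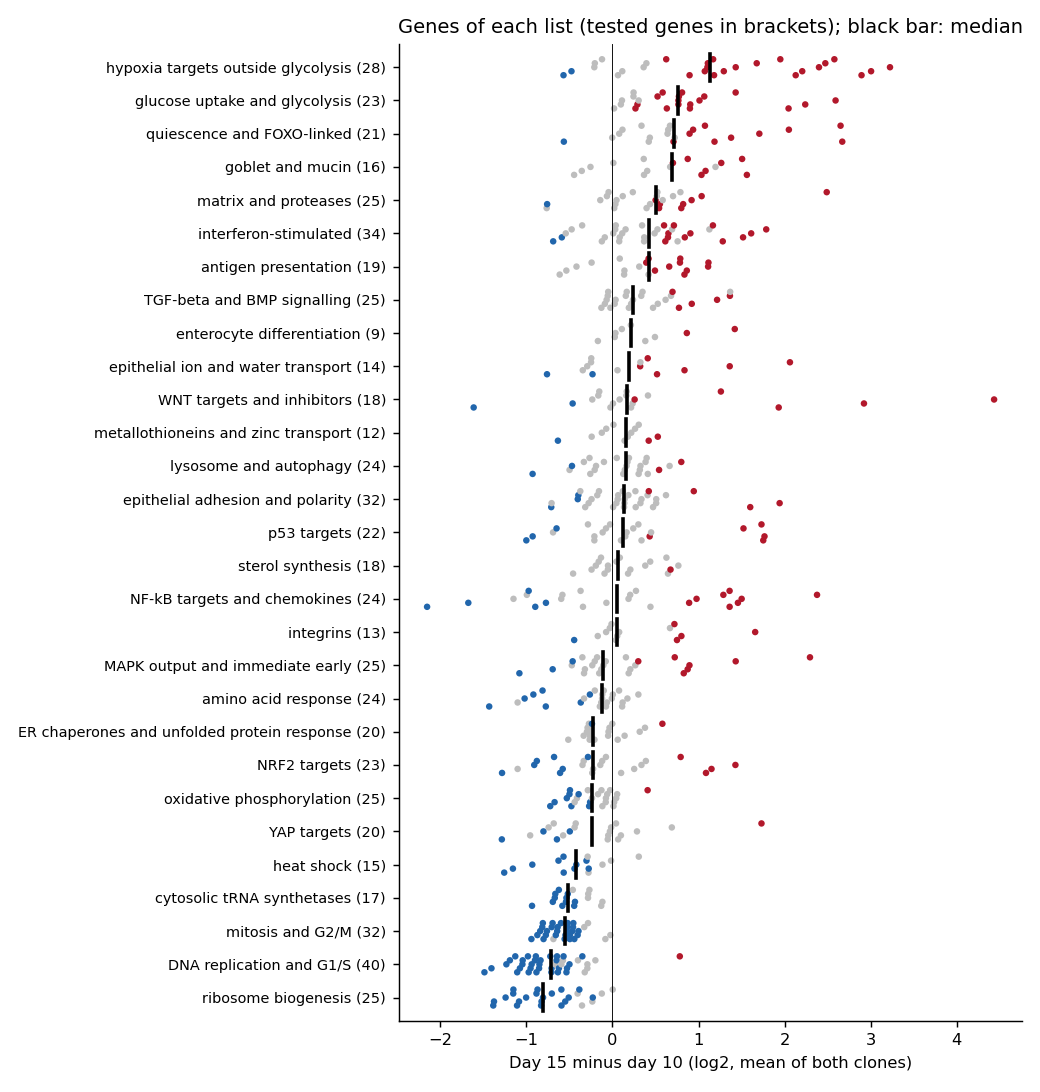
Fitted change from day 10 to day 15 (x axis, log2, mean of both clones) of every tested gene of the 29 lists, 1 point per gene, with the number of tested genes in brackets and lists ordered by median (black bar). Red and blue points are genes called higher and lower and grey points the rest; hypoxia and glycolysis lists stand at the top and ribosome biogenesis (median -0.81) and DNA replication (median -0.72) at the bottom.

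Of 16 tested goblet and mucin genes 7 were higher (beside 8.66% of all genes) and 9 did not pass, with a median of 0.69, although MUC2, TFF3, SPINK4 and ATOH1, which define goblet cells, were under the filter. MUC4, a membrane mucin, went from 10.82 and 10.45 to 12.15 and 12.13 (2.84-fold). AGR2, a disulfide isomerase needed for mucin folding, went from 10.55 and 9.70 to 11.21 and 10.79. MUC1 rose by 1.56 (log2), TFF1, a trefoil peptide, by 1.08, and HES1, the Notch target that opposes the secretory fate, by 1.26. Of 14 ion and water transport genes 6 rose and 2 fell (median 0.19), the latter close to the 14.0% of all genes. SCNN1A, the alpha subunit of the epithelial sodium channel, rose 4.17-fold, from 8.32 and 7.36 to 9.91 and 9.90. KCNQ1, a potassium channel, rose 2.57-fold and CFTR, the chloride channel, by 0.52, and the bicarbonate transporter SLC4A7 fell by 0.76. Without the cystic array of day 10, 4 mucin and 3 transport genes rose, and without the spiky one 2 transport genes.

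Of 9 enterocyte genes that passed the filter, out of 27 on the array, 2 rose: CEACAM1 1.82-fold and the glucose-sodium cotransporter SLC5A1 at least 2.62-fold. FABP1, ANPEP, SI, CA1 and SLC26A3 stayed under the filter. In the adhesion and polarity list 4 of 32 genes rose and 3 fell (median 0.14), beside 8.66% of all genes higher and 14.0% lower. Called in either direction were 21.88% of this list and 22.6% of all genes. CLDN2, a claudin that forms cation pores, went from 5.11 and 6.07 to 7.18 and 7.89 (3.84-fold), and TJP3 rose 3.03-fold, while CDH1, E-cadherin (0.41), did not pass and DSG2 fell by 0.40, a call lost in 12 of 17 alternatives, both cyclic loess and quantile normalization included. Matrix and protease genes rose in 8 of 25 cases and fell in 1 (median 0.50), beside 8.66% and 14.0% of all genes. PLAT, the tissue plasminogen activator, rose 5.62-fold, from 7.33 and 5.84 to 9.43 and 8.72. Laminin LAMA5 rose by 1.04 and collagen COL7A1 by 0.92, SERPINB5 (maspin) fell by 0.76, and MMP7 (-0.77), MMP14 (0.05) and FN1 (0.70) did not pass. Among integrins 4 of 13 rose and 1 fell, beside the same shares of all genes. ITGA1, which pairs with ITGB1 as a collagen receptor, rose from 5.32 and 4.86 to 6.87 and 6.63, and its partner ITGB1 (0.08) did not pass. Counts of 3 (matrix) and 1 (integrins) genes rose without the spiky array of day 10, and 1 integrin without the cystic one.

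Interferon-stimulated genes rose in 12 of 34 cases and fell in 2 (median 0.43), and antigen presentation genes rose in 10 of 19, with 9 not passing (median 0.42). Of all genes, 8.66% were higher and 14.0% lower. IFI6 went from 9.38 and 8.51 to 10.49 and 9.96 (2.43-fold), IFITM3, which blocks viral entry, rose 1.53-fold, and GBP2, MX2 and IRF9 rose by 1.79, 1.61 and 1.52 (log2), while ISG15 (0.37) and IRF1 (0.01) did not pass. CD74, the class II invariant chain, went from 10.82 and 9.53 to 11.39 and 10.69, and HLA-E from 10.09 and 9.89 to 10.71 and 10.84. HLA-DRA rose by 1.11, and B2M (0.08) did not pass. HLA class I genes are so alike that their probe sets may share signal. Without the day 10 array of the cystic clone 6 interferon-stimulated genes rose and without that of the spiky clone 7, and 4 antigen presentation genes without the latter.

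Among NF-kB targets and chemokines 8 of 24 rose and 5 fell (median 0.06). The shares of all genes, to set beside each list here, were 8.66% higher and 14.0% lower. Of the rising ones, PIGR, which carries antibodies across epithelium, rose 5.19-fold, from 7.25 and 9.07 to 9.75 and 11.33, and LCN2, an iron-scavenging protein, rose 2.75-fold. The complement genes C3 and CFB rose by 1.36 and 1.50 (log2), and the other 4 were TNFAIP2, TNFSF10, IL1A and NFKBIZ. The falling ones were the chemokines CXCL8, CCL2 and CXCL3 (-0.97), the complement inhibitor CD55 (-0.77) and the subunit gene NFKB1 (-0.90). In the NRF2 list, of genes against oxidative stress, 4 of 23 rose and 7 fell (median -0.23). AKR1C1, AKR1C2 and AKR1C3, aldo-keto reductases so alike that their probe sets may share signal, rose by 1.15, 1.09 and 1.43. GCLM and TXNRD1, of glutathione and thioredoxin metabolism, fell by 1.28 and 0.68, and TXN by 0.58. The classic targets NQO1 (0.10) and HMOX1 (0.25) did not pass. Of 12 metallothionein and zinc transport genes MT1F (0.53) and MT1X (0.42) rose, again from near-identical copies, and SLC39A14 fell by 0.63; the MT1X call was lost in 10 of 16 alternatives, among them centring and 5 of the 6 fits without 1 array. Without the spiky array of day 10, 4 NF-kB genes rose and 4 NRF2 genes fell, without the cystic one 2 of each list fell, and without the spiky array of day 15, 5 NF-kB genes rose and 8 fell.

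Signalling lists held single strong members among many genes that did not pass. Across all genes 8.66% were higher and 14.0% lower, and falls in the WNT and MAPK lists were no more frequent than that. In the WNT list 5 of 18 rose and 2 fell (median 0.16): besides DKK4 and APCDD1, the transcription factor SP5 rose by 1.93 (log2), the DKK receptor KREMEN1 by 1.26 and RNF43, which removes WNT receptors, by 0.26. Of the 5, APCDD1 passed the filter only through day 15. AXIN2 (0.16), LEF1 (-0.15) and SOX9 (0.08), common readouts of the pathway, did not pass, and DKK1 fell from 8.77 and 10.13 to 6.46 and 9.21. MYC fell from 10.99 and 11.04 to 10.49 and 10.62. Of 25 genes of MAPK output and the immediate early response 7 rose and 3 fell (median -0.11). EGR1 rose 2.70-fold, from 11.39 and 11.97 to 12.98 and 13.25, and FOS 4.91-fold, from 5.67 and 6.27 to 7.83 and 8.70, with DUSP6 up by 0.72. The growth factor gene EREG fell 2.12-fold and FOSL1, a partner of JUN proteins, by 0.70. TGF-beta and BMP genes rose in 5 of 25 cases and 20 did not pass (median 0.24), with ID1 from 7.46 and 7.23 to 8.57 and 8.85, ID2 up by 1.22 and the receptor BMPR2 up 1.89-fold. Lysosome and autophagy genes, at shares no higher than those of all genes, rose in 2 of 24 cases (the cathepsins CTSB, 1.46-fold, and CTSD, 1.74-fold) and fell in 2 (GLA, 1.90-fold, and SQSTM1, whose other 2 probe sets had the opposite sign). Without the spiky array of day 10, 3 MAPK and 3 TGF-beta genes rose, and 3 of the latter also without the cystic array of day 10 or the spiky array of day 15, against 10 without the cystic array of day 15.

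Whether the late step differed from the early one was tested directly, as the step from day 10 to day 15 minus that from day 5 to day 10. Both share the day 10 arrays, so an error there enters the difference with double weight. At an adjusted p under 0.05, 130 genes (1.06%) passed, 82 upward and 48 downward, and 128 of them were also called for day 15 against day 10. Of the 130, 73 rose late after a fall early and 38 fell late after a rise early, opposite signs that selection on this difference favours. Some of these early moves were very small, such as 0.003 for CCT3 and -0.013 for P4HA1 (log2). Ranked as measured, the largest upward differences were those of DKK4 (3.63 ± 0.41, log2, SE), LMNTD2-AS1 (3.62), TGM2 (3.52), APCDD1 (3.46), DDIT4 (3.37) and NDRG1 (3.25 ± 0.22, adjusted p = 0.00138). Values under log2 5 have no order: with each of them set to 5 the differences were 3.90 for DKK4, 3.34 for TGM2, 2.89 for LMNTD2-AS1 and 1.89 for APCDD1, so the last 2 lie below NDRG1. Those 2 passed the filter only through day 15. NDRG1 had fallen from 9.33 to 9.16 in the cystic and from 9.69 to 9.16 in the spiky clone before its rise. Downward, CXCL8 led with -2.72: in the cystic clone it had first risen from 9.18 to 10.25. It was followed by FANCB, of the Fanconi repair complex (-1.81), the metalloreductase STEAP1 (-1.73), RRP15 (-1.72), the noncoding RNA LNCAROD (-1.72) and TAF1D, a factor of RNA polymerase I (-1.63). TAF1D, for one, went from 8.54 to 9.26 to 8.13 in the cystic and from 8.55 to 8.91 to 7.86 in the spiky clone. In the lists, 10 of 23 glycolysis genes and 9 of 28 hypoxia genes passed this test, all upward. Of these 9, EGLN3 passed the filter only through day 15. Beside them 3 of 40 replication and 2 of 25 ribosome biogenesis genes passed, all downward. The count depends on single arrays: it was 1 and 5 without the cystic and spiky array of day 5, 35 and 16 without those of day 10, and 1842 and 857 without those of day 15. Without the intensity trend in the variance prior 0 genes passed in limma (2153 at an unadjusted p under 0.05), and without the clone term 0 (1256).

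A change in the gap between the clones at day 15 was tested with an extra clone term. It takes the gap at day 5 and 10 as constant. The difference it gives is the gap between the clones at day 15 minus their mean gap at day 5 and 10, so it need not equal the steps from day 10 subtracted from each other. For 153 genes (1.24%) the gap at day 15 differed from that mean, 120 toward the spiky and 33 toward the cystic clone. In 62 of the 153 the steps of the clones from day 10 had opposite signs. ATOH8, a transcription factor of the BMP pathway, stood at 5.15 and 5.47 in the cystic clone and rose from 7.43 to 9.84 in the spiky clone (difference 3.15 ± 0.61, log2, SE). The clones had already moved apart in this gene from day 5 to day 10, by -0.77 in the cystic and 1.35 in the spiky clone. The ATOH8 call was lost in 5 of 9 alternatives, among them quantile normalization and the mean of all probe sets of a gene. ASS1, of arginine synthesis, went from 8.36 to 9.35 and from 7.37 to 11.47 (difference 2.81, adjusted p = 0.000331). Both genes were thus highest on the spiky array of day 15. ZBED2 fell from 7.64 to 4.73 in the cystic clone and was under log2 5 in the spiky one (3.12). It passed the filter only through the cystic arrays of day 5 and 10. DEPP1, a FOXO target, the noncoding RNA LINC02615 and GYG2, which primes glycogen, differed by 2.46, 2.43 and 2.39, each with its highest value on the spiky day 15 array. With values under log2 5 set to 5, the difference was 2.86 for ZBED2, 1.95 for LINC02615 and 2.62 for GYG2.

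Toward the cystic clone, RLBP1, a retinaldehyde-binding protein, went from 5.22 to 8.95 there and from 4.28 to 4.83 in the spiky clone (difference -3.55 ± 0.43). With 4 of the 6 arrays under log2 5, it passed the filter only through the cystic array of day 15. TMEM158, NNMT, which methylates nicotinamide, and the adhesion gene NCAM1 were higher at day 15 in the cystic clone and lower in the spiky one, with differences of -2.51, -2.30 and -2.07. SLC7A11, the cystine importer, went from 9.61 to 9.24 in the cystic clone and from 9.59 to 7.76 in the spiky clone (-1.94), and MYH15 differed by -1.99. With values under log2 5 set to 5, the difference was -3.83 for RLBP1 and -0.84 for MYH15. The calls of NCAM1 and MYH15 were lost in 3 of 6 and 4 of 8 alternatives, each time also after quantile normalization. Some genes described above as moving together also differed in size. The difference was 1.43 for DDIT4 and 1.96 for MB, which rose more in the spiky clone, and 1.36 for DKK1 and 2.11 for CCL2, which fell more in the cystic clone; that of MB was 1.15 with values under log2 5 set to 5.

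In the lists, this test called 6 of 18 sterol synthesis genes and 6 of 20 YAP targets, all toward the spiky clone, beside 1.24% of all genes; the 2 lists were singled out after the values were seen. SREBP factors switch on sterol synthesis when membranes lack cholesterol, and the list's median step was -0.22 in the cystic and 0.44 in the spiky clone. INSIG1, the sterol sensor, went from 9.88 to 9.60 and from 9.005 to 10.58 (difference 1.68), and MSMO1 differed by 1.42, SQLE by 1.11, IDI1 by 0.92, HMGCS1 by 0.90 and FDPS by 0.48. Only SREBF2 of this list (0.67, adjusted p = 0.0405) passed the test for both clones together, a call lost in 11 of 17 alternatives. The shares of all genes in that test, to set beside both lists, were 8.66% higher and 14.0% lower. YAP, a factor of the Hippo pathway that answers cell density and stiffness, drives CCN1 and CCN2; CCN2 went from 8.17 to 6.78 in the cystic clone and from 8.49 to 8.51 in the spiky clone (1.55), and CCN1 from 7.04 to 5.37 and from 7.37 to 7.56 (1.75). AJUBA, AMOTL2, LATS2 and F3 differed by 1.89, 1.34, 0.93 and 0.69. Over both clones 1 of 20 YAP targets rose, GADD45A, and 4 fell, among them FJX1 (2.44-fold) and F3 (-0.65); without the spiky array of day 15, 10 fell. With the mean of all probe sets of a gene, 2 sterol genes and 1 YAP target were called. The clone test has 1 residual degree of freedom and leans on the variance prior: without its intensity trend 0 genes passed in limma (1311 at an unadjusted p under 0.05).

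**Figure D4:**
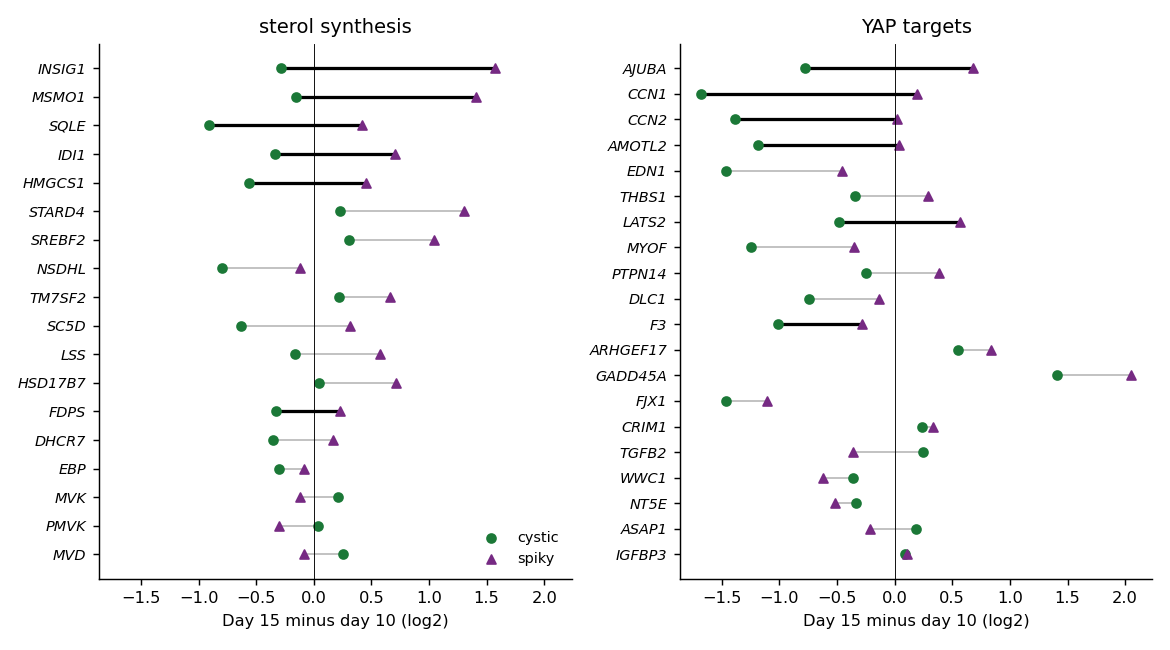
Change from day 10 to day 15 (x axis, log2) of each tested sterol synthesis gene (left) and YAP target (right) in the cystic clone (green circles) and the spiky clone (purple triangles), 1 array per clone and day, so no error bar is drawn. Black lines join the clones where the clone difference was called, in 6 of 18 and 6 of 20 genes, and in all of these the spiky clone lies to the right.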

How the data were processed

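RNA of 6 samples of collagen culture, 1 array each, was labelled as biotinylated cRNA, per the labels' protocols. The deposited log2 values are RMA values of 54675 probe sets, per the submitters' processing notes; the sources used here do not name the RMA software or its version. RMA corrects background, brings arrays processed together to 1 distribution and joins the probes of a set, which hides overall shifts in RNA. Whether the 6 arrays were processed together was not found in the labels; their medians differed, from 5.18 to 5.34, and the split of calls into higher and lower moved with the scaling. No value was missing.

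GEO's platform annotation gave 41097 probe sets 1 gene symbol, 1801 several and 11777 none; 41043 matched a RefSeq gene (GRCh38.p14) and 54 kept the platform's symbol. Each of 19775 genes was represented by its probe set with the highest mean (for 922 genes one of the type _x_at), and tests covered the 12317 whose mean log2 reached 5. limma 3.58.1 in R 4.3.3 fitted day plus clone to all 6 arrays (2 residual degrees of freedom, eBayes with an intensity trend, prior degrees of freedom 6.98), with Benjamini-Hochberg adjustment over all genes tested and a threshold of 0.05. The code was tested on simulated data. The small number of arrays limits the precision. Clone is the block, because arrays of a clone come from the same cells; across genes the gap between clones at day 10 and at day 15 correlated at 0.526. A fold marked "at least" sets arrays under log2 5 to 5.

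Genes were named by rank: the 12 highest and 12 lowest differences for day 15 against day 10, 6 in each direction for each of the other tests, and within a list those with the smallest p, up to 2 per direction. Further list members were named after their values were seen. The genes described, and the 29 lists, were chosen with earlier results of these data known, and lists are given by counts and medians with no test. Alternatives changed the filter, probe set rule, scaling, variance prior, model terms and arrays; setting values under log2 5 to 5 in the differences of named genes was added after seeing the data. Figures used matplotlib 3.10.9.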

Additional observations from a re-analysis of the deposited data

Results flagged for a closer look

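For 153 genes limma's test called a clone difference at day 15, which need not be one between the steps from day 10. The test sets the gap between the clones at day 15 against their mean gap at day 5 and 10. As the spiky minus the cystic clone's value on that measure (log2), the values for the genes ranked highest were 3.15 for ATOH8, 3.12 for ZBED2, 2.81 for ASS1, 2.46 for DEPP1, 2.43 for LINC02615 and 2.39 for GYG2. At the other end they were -3.55 for RLBP1, -2.51 for TMEM158, -2.30 for NNMT, -2.07 for NCAM1, -1.99 for MYH15 and -1.94 for SLC7A11. YAP targets differed by 1.89 (AJUBA), 1.75 (CCN1), 1.55 (CCN2), 1.34 (AMOTL2), 0.93 (LATS2) and 0.69 (F3). Sterol synthesis genes differed by 1.68 (INSIG1), 1.42 (MSMO1), 1.11 (SQLE), 0.92 (IDI1), 0.90 (HMGCS1) and 0.48 (FDPS). Of the 153 genes, 62 were also called for both clones together, and only some of these are named here. Among them the difference was 2.11 for CCL2, 1.96 for MB, 1.63 for BHLHE40, 1.43 for DDIT4 and CDKN1A and 1.36 for DKK1. It was 0.98 for LCN2, 0.42 for KRT19 and -1.11 for EREG. With values under log2 5 set to 5, MYH15 gave -0.84 and MB 1.15, and the other genes named kept their sign. RLBP1 passed the filter only through the cystic array of day 15.

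The late step differed from the early one for 130 genes by the test of that difference. As late minus early step (log2), it was 3.63 for DKK4, 3.62 for LMNTD2-AS1, 3.52 for TGM2, 3.46 for APCDD1, 3.37 for DDIT4 and 3.25 for NDRG1. With values under log2 5 set to 5 it was 3.90 for DKK4, 2.89 for LMNTD2-AS1, 3.34 for TGM2 and 1.89 for APCDD1. It was -2.72 for CXCL8, -1.81 for FANCB, -1.73 for STEAP1, -1.72 for RRP15, -1.72 for LNCAROD and -1.63 for TAF1D. LMNTD2-AS1 and APCDD1 passed the filter only through day 15. With 2 arrays a day, no array was tested as an outlier.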

How the results depend on the processing

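The count of genes for day 15 against day 10 (2786) became 1444 without the intensity trend in limma's variance prior and 4677 with every probe set tested, and lay between 1019 and 3577 with 1 array left out; it stayed within 1.5 times the count under the other filters, probe set rules and scalings, the robust prior and the fit of 4 arrays. Arrays are paired by clone: without clone as the block, 337 genes passed for day 15 against day 10 and 0 for the late against the early step, and 70 of the 103 called genes that were named lost their call. The late against early count (130) became 17 with no filter on dim genes, 312 with a mean of at least 6, 43 with the mean of a gene's probe sets, 74 after quantile normalization, 0 without the trend and 291 with every probe set, and lay between 1 and 1842 with 1 array left out. The clone difference count (153) became, under the same 6 settings, 40, 280, 21, 96, 0 and 355, and it became 633 with arrays centred and 434 after cyclic loess. Leaving out an array leaves that test no residual degrees of freedom, and the fits without clone or without day 5 cannot give it. Signs turned for GINS4 (-0.082), CYCS (0.10) and SQSTM1 (0.15) with the mean of probe sets, and for CANX (0.039) and SQSTM1 (0.40) without _x_at and _s_at probe sets; none of these 5 values passed the test. Of the 103 called genes named for day 15 against day 10, 30 held in every alternative that gave a value, and 10 were lost in 8 or more. Of the 12 named for the late against the early step, 0 held in every alternative. Of the 12 named for the clone difference, 5 were lost only without the intensity trend, where 0 genes passed. Brightness limits the 7458 genes under the filter, which were not tested.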
